A study of Mus musculus with 4 samples.

Results

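Glucose sensing and stimulus-secretion coupling were followed through 9 genes of pancreatic islet cells: Slc2a2, G6pc2, Kcnj11, Abcc8, Trpm5, Trpm2, Pcx, Slc30a8 and Tmem27. They were taken by symbol from single-cell RNA counts of 21594 gene symbols, and all 9 symbols were present in all 4 samples. The 2 mutant samples held islets of Atf4F/F; Ins1Cre mice, in which a Cre recombinase driven from the Ins1 locus acts on floxed alleles of the transcription factor gene Atf4. The 2 control samples held islets of Atf4F/F mice without Cre, so the floxed alleles were common to both groups. The mice were 2 months old. Each sample was a pool, described in one place as islets of 2 males and 2 females and in another as islets of 3 to 4 mice. Cells positive and negative for the tdT reporter went into the same libraries, and 10% human K562 cells were added before encapsulation by the inDrops droplet method.

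In a beta cell, glucose enters through a glucose transporter, is phosphorylated and is oxidised, and the resulting ATP closes ATP-sensitive potassium channels. The membrane then depolarises, calcium enters and insulin granules, which hold zinc, fuse with the membrane. Slc2a2 encodes the transporter GLUT2, and G6pc2 an islet glucose-6-phosphatase subunit that opposes glucokinase. Pcx encodes pyruvate carboxylase, which carries pyruvate into the mitochondrial cycle. Kcnj11 and Abcc8 encode the pore (Kir6.2) and the sulfonylurea receptor (SUR1) of the ATP-sensitive channel. Trpm5 encodes a cation channel opened by internal calcium, and Trpm2 one opened by ADP-ribose and peroxide. Slc30a8 encodes the granule zinc transporter ZnT8, and Tmem27 encodes collectrin, a membrane protein shed from beta cells.

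The genes lie at separate places of the mouse genome (GRCm38, GENCODE vM21) except for the channel pair. Kcnj11 (chr7:46093953-46100764) and Abcc8 (chr7:46104523-46180033) are neighbours on the minus strand, 3758 bases apart. Trpm5 is at chr7:143069153-143094642, Trpm2 at chr10:77907722-77970563, Slc2a2 at chr3:28697903-28731359, G6pc2 at chr2:69211073-69227841 and Pcx at chr19:4510472-4621752. Slc30a8 is at chr15:52295553-52335798, on the chromosome that also holds Atf4 (chr15:80255184-80257541). Tmem27 is on the X chromosome (chrX:164088830-164118860), where the annotation calls it Cltrn. Trpm5 overlaps Tssc4 and Pcx overlaps Lrfn4, each on the opposite strand. How reads in such overlaps were assigned is not given in the sources used here.

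The 250 bases before the RefSeq start (GRCm38.p6) are shown for 3 genes that stand for the patterns described here. They are Trpm2, which differed between mutants and controls, Slc2a2, which was almost limited to beta cells, and Tmem27, which was lower in beta cells than in other endocrine cells. They are chr10:77969873-77970122 on the minus strand, chr3:28697653-28697902 on the plus strand and chrX:164089937-164090186 on the plus strand. Capitals mark a match to an HNF1 motif.
Trpm2: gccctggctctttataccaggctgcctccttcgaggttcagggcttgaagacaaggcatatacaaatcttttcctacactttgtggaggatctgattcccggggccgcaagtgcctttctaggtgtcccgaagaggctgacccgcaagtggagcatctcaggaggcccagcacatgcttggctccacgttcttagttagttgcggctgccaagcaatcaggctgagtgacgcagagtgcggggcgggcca
Slc2a2: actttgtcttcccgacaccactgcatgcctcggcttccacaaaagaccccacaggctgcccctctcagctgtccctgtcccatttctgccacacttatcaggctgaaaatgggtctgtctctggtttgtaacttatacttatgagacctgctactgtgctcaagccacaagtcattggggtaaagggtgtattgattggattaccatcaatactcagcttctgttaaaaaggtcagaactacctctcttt
Tmem27: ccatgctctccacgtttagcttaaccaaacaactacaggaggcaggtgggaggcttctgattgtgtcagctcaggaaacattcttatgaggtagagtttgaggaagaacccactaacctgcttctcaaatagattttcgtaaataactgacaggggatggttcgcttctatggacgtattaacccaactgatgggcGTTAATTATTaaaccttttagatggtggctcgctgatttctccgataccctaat
RefSeq windows of 250 bases before to 50 bases after the start were found for 6 of the 9 genes (9 windows), and both strands were searched for 3 motifs, with no overlap between matches. The HNF1 motif, in which any base was taken at the 7th place of the letters in capitals, was found 54 bases before the start in the Tmem27 window shown, and 0.399% of 32851 mouse windows of this length hold it. The C/EBP-ATF core TGATGNAA (3.97% of all windows) and the cyclic AMP response element TGACGTCA (1.79% of all windows) were not found in the 9 windows.

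Cells were put into classes by their hormones alone, none of which is among the 9 genes. Of 11114 barcodes, 6995 passed the filters, with 1403 and 1714 cells in mutants 1 and 2 and 1997 and 1881 in controls 1 and 2. The 4 libraries held 13706563 to 17655893 UMIs (unique molecules counted). Insulin-rich beta cells numbered 803 and 864 in mutants 1 and 2, against 1291 and 1170 in controls 1 and 2. Alpha cells (glucagon) numbered 140 and 244 against 180 and 158, delta cells (somatostatin) 70 and 91 against 70 and 56, and PP cells (pancreatic polypeptide) 28 and 13 against 33 and 9. A further 1518 barcodes were rich in more than 1 hormone and were left out. Own markers were detected for 9 or 10 of 10 genes in beta cells, 8 of 8 in alpha cells, 6 of 7 in delta cells and 3 of 3 in PP cells of each sample. This detection cannot check the classes, since the lists include the hormones. Beta cells of each sample also held 8 of 8 alpha cell markers and 3 of 3 PP cell markers. Endothelial cells (21 to 39 per sample) and macrophages (5 to 23) served for comparison. Any pair of libraries shared 14 to 35 of the kept barcodes. Levels are counts per 1000000 UMIs of a class (CPM), after the UMIs of 7 hormone genes are left out. Atf4 checked the labels: its beta cell level was 7.16 CPM in mutant 1 and 198 CPM in mutant 2, against controls 1 and 2 at 577 and 623 CPM. Mutant 2 therefore kept part of its Atf4 RNA, and the larger mutant effects are given with and without it.

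Slc2a2, G6pc2 and Trpm5 were close to limited to beta cells. Slc2a2 had 1213, 1242, 1198 and 1217 CPM in beta cells of mutant 1, mutant 2, control 1 and control 2, against 20.5, 7.06, 15.1 and 11.9 CPM in alpha cells of the same samples. It was higher in beta cells than in alpha cells by 6.50 ± 0.15 on the log2 scale (edgeR fit, ± SE). G6pc2 had 2978, 2049.9, 1691 and 1958 CPM in beta cells, against 41.0, 43.5, 46.9 and 22.0 CPM in alpha cells, a difference of 5.79 ± 0.13. Trpm5 had 298, 398, 475 and 604 CPM in beta cells, against 4.39, 2.35, 10.0 and 5.09 CPM in alpha cells, a difference of 6.37 ± 0.19. No alpha cell sum reached any beta cell sum for these 3 genes. Slc2a2 and Trpm5 passed the filter on low counts only through beta cells, so their differences describe size and no p-value is given.

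The low values outside beta cells were set beside the insulin RNA found in the same classes, since droplets take up free RNA. Insulin in alpha, delta, PP, endothelial and macrophage cells was at 1.07% to 2.99% of its beta cell level in each sample. Slc2a2 was at 0.568% to 1.69% of its beta cell level in alpha cells, G6pc2 at 1.13% to 2.77% and Trpm5 at 0.590% to 2.11%. These ranges overlap that of insulin, which is itself limited by the choice of these classes for low insulin. Trpm5 reached 5.56% in the PP cells of 1 sample, from 1 UMI, and had 0 UMIs in endothelial cells and in macrophages. The part of free RNA in these values was not tested. Slc2a2 had 0 UMIs in PP cells, which puts beta cells at least 124-fold higher against a floor of 3 counts over the 4 PP sums together. The median UMI count was 6178 to 8678 in beta cells and 3144 to 5439 in PP cells over the 4 samples.

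The 9 genes fell into different orders across the endocrine classes. Classes were compared by the edgeR quasi-likelihood F test. Beta cells differed at an adjusted p under 0.05 from alpha cells at 43.2% of the 12342 genes tested. They differed from delta cells at 26.1% of 12187 genes and from PP cells at 11.7% of 11651 genes. Kcnj11 was too low to test. The filter on low counts was passed within alpha cells alone by G6pc2, Abcc8, Pcx, Slc30a8 and Tmem27, within delta cells alone by Abcc8 and Tmem27, and within PP cells alone by Abcc8, Slc30a8 and Tmem27. The other genes entered each comparison only through beta cells, where they are high, so that a difference was largely set by the filter, and their values are given as a description of size.

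The sizes depended on how cells were put into classes. Of the 647 barcodes in the cluster that stood for delta cells when clusters were made without the 9 genes, 255 were rich in insulin and 280 were delta cells by hormones. The log2 difference of beta cells from that cluster was 1.57 for Slc2a2, 1.51 for G6pc2, 1.58 for Trpm5, 1.63 for Trpm2, 1.21 for Pcx and 1.25 for Slc30a8, against 7.06, 6.80, 6.22, 2.60, 2.97 and 6.12 with delta cells taken by hormones. Abcc8 was at -0.34 by both ways, and Tmem27 at -1.13 against -1.33. Beta cells differed from the alpha cell cluster by 5.39 for Slc2a2, 5.10 for G6pc2 and 5.60 for Trpm5.

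Trpm2 and Pcx were also highest among endocrine cells in beta cells, at smaller differences. Pcx had 129, 130.2, 121 and 117 CPM in beta cells of mutant 1, mutant 2, control 1 and control 2, against 24.9, 11.8, 20.1 and 13.6 CPM in alpha cells. It was higher in beta cells by 2.84 ± 0.17 (log2) than in alpha cells, by 2.97 ± 0.28 than in delta cells (4.61 with a hormone threshold of 0.3%) and by 2.44 ± 0.44 than in PP cells. Its alpha cell level was 9.03% to 19.2% of the beta cell level, above the insulin range in every sample. Trpm2 was higher in beta cells than in alpha cells by 3.39 ± 0.44, where alpha cells held 5 Trpm2 UMIs in all. Against delta cells, with 3 UMIs, the difference was 2.60 ± 0.69. It was 2.16 without mutant 2 and 0.95 with that threshold of 0.3%. Against PP cells, with 1 UMI, the Trpm2 difference was 2.60 ± 1.21. Trpm2 entered these comparisons only through beta cells, so its differences describe size alone. Trpm2 was the gene of the 9 that macrophages also held, with 52.3, 116, 0 and 57.9 CPM from 4, 7, 0 and 2 UMIs in mutant 1, mutant 2, control 1 and control 2.

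Slc30a8 was shared by beta and alpha cells. Its beta cell levels in mutants 1 and 2 and controls 1 and 2 were 1811, 1902, 1474 and 1620 CPM, and stood against alpha cell levels of 1730, 1575, 1039.8 and 1196 CPM. The difference of 0.30 ± 0.07 passed the test (adjusted p = 0.00173), and beta cells were the higher in all 4 samples. Delta cells held 48.5, 23.8, 11.6 and 21.0 CPM, which is 0.785% to 2.68% of the beta cell level and overlaps the range of insulin. Beta cells were higher than delta cells by 6.12 ± 0.20, and than the delta cell cluster by 1.25. PP cells lay between, at 106, 155, 136 and 125 CPM, or 5.84% to 9.25% of the beta cell level, and beta cells were higher by 3.90 ± 0.23. The order was therefore beta, alpha, PP and delta cells in each of the 4 samples.

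Tmem27 ran the other way, with beta cells the lowest of the endocrine classes in every sample. Beta cells of mutants 1 and 2 and controls 1 and 2 had 692, 606, 654 and 687 CPM. Alpha cells had 2931, 2174, 2866 and 2553 CPM, delta cells 1736, 1764, 1915 and 1735 CPM, and PP cells 4358, 3480, 5299.9 and 3987 CPM. The log2 difference of beta cells was -2.001 ± 0.07 from alpha cells, -1.33 ± 0.10 from delta cells and -2.47 ± 0.16 from PP cells. The order was PP, alpha, delta and beta cells, with no overlap between neighbouring classes. Endothelial cells and macrophages held 1 and 2 Tmem27 UMIs in all.

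Abcc8 was present at like levels in all 4 endocrine classes and low in the others, at 0% to 5.58% of its beta cell level in endothelial cells and macrophages. It had 473, 515, 436 and 519 CPM in beta cells of mutant 1, mutant 2, control 1 and control 2, against 423, 429, 534 and 519 CPM in alpha cells. The difference between them was 0.02 ± 0.09 (adjusted p = 0.868), and the classes overlapped. Delta cells had 659.6, 688, 694 and 609 CPM, above beta cells in all 4 samples, and the log2 difference of beta cells from them was -0.34 ± 0.11 (adjusted p = 0.0150). That call was lost without mutant 2 (adjusted p = 0.0882), without control 1 (0.116), without a filter on low counts (0.121) and with the hormone threshold of 0.3% (log2 difference of -0.02, adjusted p = 0.975). The difference from PP cells was 0.0046 ± 0.19 (adjusted p = 0.996). Its partner Kcnj11 was barely counted, with 11 and 12 UMIs in beta cells of the mutants, 8 and 17 in those of the controls and 5 UMIs in the 3 other endocrine classes together. The annotated 3′ ends of Kcnj11 in GENCODE and RefSeq lie 3170 bases apart, and 3′ reads were counted on an annotation not given in the sources used here. Whether this bears on the low count was not tested.

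**Figure D1:**
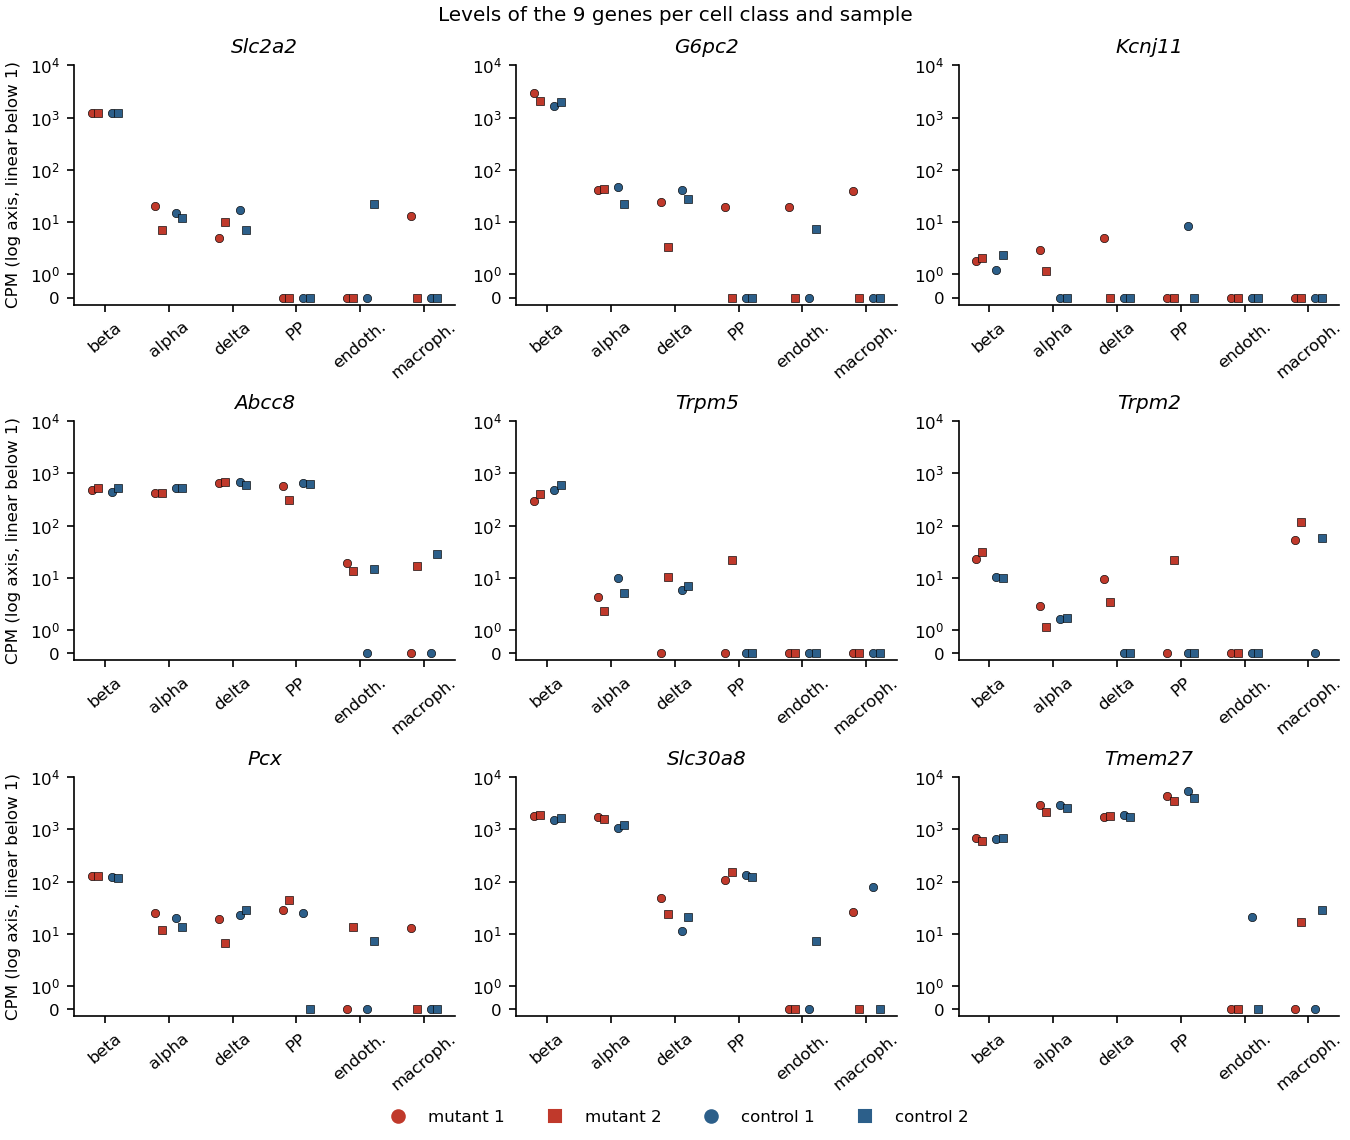
Level of each gene in CPM (vertical axis, logarithmic above 1 and linear below) in 6 cell classes (horizontal axis), with 1 point per sample. Mutants are the red points on the left of each class and controls the blue points on the right; circles are samples 1 and squares samples 2. Slc2a2, G6pc2 and Trpm5 stand high in beta cells alone, Slc30a8 in beta and alpha cells, Abcc8 in all 4 endocrine classes, and Tmem27 is lower in beta cells (606 to 692 CPM) than in the other endocrine classes.

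Across the 16 sums of 4 endocrine classes by 4 samples, the genes whose profiles were most like each of the 9 were listed from 5567 genes, by Pearson's r of log2(CPM + 1). The sums share libraries and differ in depth, so r is a description. Slc2a2 was most like Phactr1 (r = 0.933), Ucn3 (0.932) and Papss2 (0.914), of which Ucn3 encodes the peptide urocortin 3 of mature beta cells. Trpm5 was most like Prkag2 (0.915), Ucn3 (0.911) and Mtch1 (0.905), and G6pc2 was most like A530058N18Rik (0.889), Sgcz (0.878) and Ndufv3 (0.874). For Pcx the closest were Gpr158 (0.952), Akt1 (0.947) and Prlr (0.933), and for Slc30a8 they were Skap1 (0.951), Nell1 (0.942) and Sphkap (0.932). Tmem27 followed 5330417C22Rik (0.966), Zwint (0.9502) and Rcn3 (0.9497), and Abcc8 followed Slc29a1 (0.909), M6pr (0.863) and Llgl2 (0.861). Among the genes most like Trpm2 were Pitpnb (0.8701) and Hspa9 (0.833). For Kcnj11, with so few UMIs, the nearest were Luc7l (0.751), Ndufs3 (0.722) and Rhbdd1 (0.714).

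In beta cells, Trpm2 was the only one of the 9 genes that differed between mutants and controls at an adjusted p under 0.05. Its level was 23.0 CPM in mutant 1 and 31.2 CPM in mutant 2 (138 and 181 UMIs), against controls 1 and 2 at 10.5 and 10.1 CPM (71 and 75 UMIs). Both mutants were above both controls. Trpm2 rose by 1.35 ± 0.21 on the log2 scale (edgeR quasi-likelihood F test, adjusted p = 0.0426 over 13573 genes), a 2.56-fold difference. That is 1 of 9 genes, where 0.523% of all genes passed, 52 higher and 19 lower. The call sat near the threshold. Trpm2 was higher in mutants under all 19 alternatives, by 0.94 to 1.56, and passed in 12 of them. It was lost without mutant 1 (1.56, adjusted p = 0.103) and without mutant 2 (1.09, adjusted p = 0.112). It was also lost in limma-voom (adjusted p = 0.0551), with cells of at least 300 genes (0.0524), in clusters made without the 9 genes (0.0790), and among cells with Xist (0.262) or Y-linked counts (0.203) alone.

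Barcodes of the 2 groups also fell in part into different clusters among those that stood for beta cells. One cluster held 355 and 259 barcodes of mutants 1 and 2, against 11 and 12 of controls 1 and 2, and another held 209 and 234 of the mutants, against 11 and 8 of the controls. In the other direction, 4 clusters held 1 to 29 barcodes of each mutant, against 221 and 243, 72 and 412, 417 and 170, and 306 and 15 barcodes of controls 1 and 2. All kept barcodes are counted here, also those rich in more than 1 hormone. The cluster with 221 and 243 control barcodes held 504 in all, of which 201 were beta cells by hormones and 300 were rich in more than 1 hormone. Trpm2 was compared over all beta cells of a sample, and levels within single clusters were not compared.

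Macrophages hold Trpm2 too, so their markers were summed in the same beta cells. All 8 macrophage markers were detected in each beta cell sum. The CPM of marker sums count all UMIs, hormone genes included, so they are not on the scale of the other levels. Their sum was 69.8 CPM in mutant 1 and 99.7 CPM in mutant 2, against controls 1 and 2 at 136 and 129.9 CPM. Endothelial markers, 8 of 8 detected, stood at 72.1 and 67.6 CPM in beta cells of the mutants, against 37.4 and 129 CPM in those of the controls. Acinar markers, with 11 or 12 of 12 detected, stood at 50.1 and 66.1 CPM in the mutants against 182.5 and 283 CPM in the controls. The part of macrophage, endothelial and acinar RNA in the differences of the 9 genes was not tested.

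Trpm5, the other cation channel, was lower in both mutants but did not pass. Its level was 298 CPM in mutant 1 and 398 CPM in mutant 2, against controls 1 and 2 at 475 and 604 CPM, with no overlap. The difference was -0.66 ± 0.17 on the log2 scale (adjusted p = 0.145). It was below 0 under all 19 alternatives, from -0.91 to -0.41, and passed in 4 of them: without a filter on low counts, in DESeq2, with a replicate block and without control 1 (-0.80, adjusted p = 0.000649). Without mutant 2 it was -0.91 (adjusted p = 0.0930). The gene on its opposite strand, Tssc4, differed by 0.23 ± 0.12 (adjusted p = 0.438).

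G6pc2 was uneven among the mutants. Mutant 1 had 2978 CPM and mutant 2 had 2049.9 CPM, against 1691 and 1958 CPM in controls 1 and 2. The difference was 0.43 ± 0.17 (adjusted p = 0.308). It rested on mutant 1: without that sample it was 0.14 (adjusted p = 0.789), without mutant 2 it was 0.65 (adjusted p = 0.110), and without control 2 it was 0.50 and passed (adjusted p = 0.0399). Slc30a8 had 1811 and 1902 CPM in the mutants, against 1474 and 1620 CPM in the controls, a difference of 0.23 ± 0.11 (adjusted p = 0.388). The 2 groups did not overlap, and the difference lay between 0.15 and 0.35 over 19 alternatives, none of which made it pass. Without mutant 2 it was 0.17 (adjusted p = 0.613).

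The genes of glucose entry, anaplerosis and the ATP-sensitive channel, and Tmem27, did not pass the test in beta cells. Slc2a2 had 1213 and 1242 CPM in the mutants, against 1198 and 1217 CPM in the controls (log2 difference of -0.01 ± 0.11). Pcx had 129 and 130.2 CPM in the mutants, against 121 and 117 CPM in the controls (0.09 ± 0.12), a small gap with no overlap between the groups. Abcc8 had 473 and 515 CPM in the mutants, against 436 and 519 CPM in the controls (0.02 ± 0.13). Tmem27 had 692 and 606 CPM in the mutants, against 654 and 687 CPM in the controls (-0.08 ± 0.12). Kcnj11, from 48 UMIs in all, differed by 0.12 ± 0.47, an error too wide to read. Adjusted p-values of these 5 genes were between 0.794 and 0.976, and without mutant 2 their differences were between -0.0714 and 0.0567. Counting all 9 genes, 4 were higher in both mutants than in both controls and 1 was lower, which is 55.6% against 45.3% of all genes tested.

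**Figure D2:**
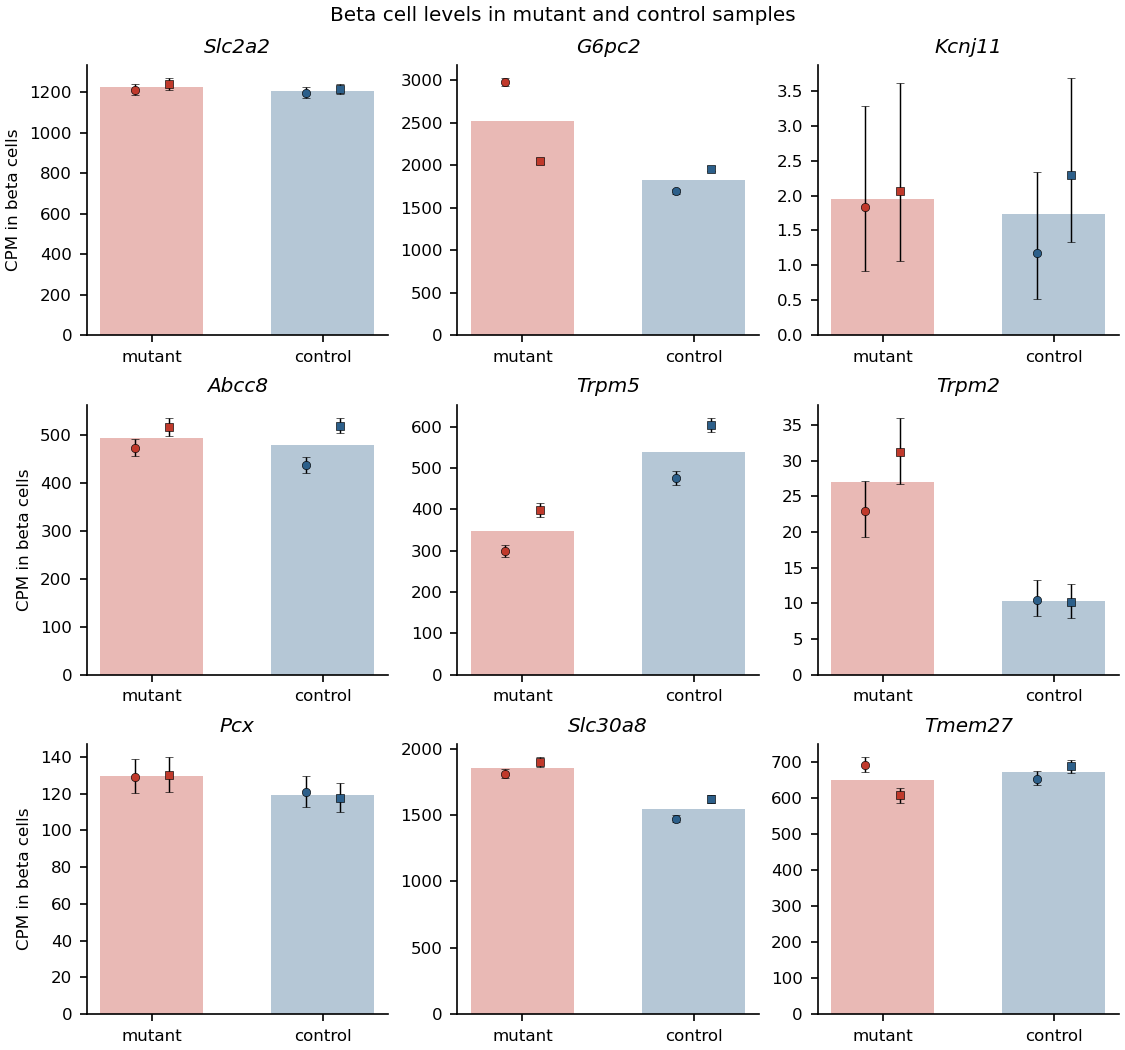
Beta cell level of each gene in CPM (vertical axis, from 0), with mutants on the left and controls on the right. Bars are means of 2 samples, circles are samples 1, squares are samples 2, and error bars are exact 95% Poisson intervals of each sample's count. The 2 mutants stand at 23.0 and 31.2 CPM for Trpm2, above the controls at 10.5 and 10.1 CPM, while Slc2a2 is at 1198 to 1242 CPM in all 4 samples.

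Alpha cells, which do not normally express Ins1, had Atf4 levels of 320.3 and 365 CPM in the mutants, against 539 and 416 CPM in the controls. None of the 5 genes tested there passed, where 0.217% of 8746 genes did; DESeq2 and limma-voom also called 0. At an unadjusted p under 0.05 in edgeR there were 2 of the 5, Slc30a8 and Abcc8, against 9.75% of all genes tested. Slc30a8 had 1730 and 1575 CPM in alpha cells of the mutants, against 1039.8 and 1196 CPM in those of the controls, with no overlap. The difference was 0.53 ± 0.13 (adjusted p = 0.126), and it passed without mutant 2 (0.58, adjusted p = 0.0376), without control 2 (0.61, adjusted p = 0.0389) and without a filter on low counts (0.54, adjusted p = 0.0116). Abcc8 had 423 and 429 CPM in the mutants, against 534 and 519 CPM in the controls, a difference of -0.34 ± 0.14 (adjusted p = 0.461), and of -0.365 without mutant 2 (adjusted p = 0.673). The other 3 genes tested differed by 0.26 ± 0.34 (G6pc2), 0.04 ± 0.50 (Pcx) and -0.12 ± 0.14 (Tmem27). The part of free RNA in the G6pc2 value was not tested.

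The difference of the mutant effect between beta and alpha cells is given for the 5 genes that passed the filter on low counts in both. None of them passed the test, where 0.376% of 13311 genes did. The G6pc2 level in alpha cells, at 1.13% to 2.77% of that in beta cells, overlapped the range of insulin, so its value is only a description. The effect in beta cells minus that in alpha cells was -0.30 ± 0.11 for Slc30a8 (adjusted p = 0.423), 0.36 ± 0.14 for Abcc8 (adjusted p = 0.549), 0.05 ± 0.11 for Tmem27 (adjusted p = 0.975), 0.14 ± 0.30 for G6pc2 and 0.05 ± 0.45 for Pcx. Slc30a8 and Abcc8 had an unadjusted p under 0.05, as did 7.11% of all genes, and Slc30a8 passed without mutant 2 (adjusted p = 0.0485). Slc2a2, Trpm5 and Trpm2 entered only through beta cells, with 36, 14 and 5 UMIs in alpha cells, and the error of 1.36 for Trpm2 leaves its difference unread. Against delta cells the same holds for all but Abcc8 (-0.05 ± 0.20) and Tmem27 (-0.06 ± 0.18), neither of which passed, where 0.266% of 13518 genes did and 5.27% had an unadjusted p under 0.05. Within delta cells 0 of 2 genes passed (0.064% of 4690 genes) and within PP cells 0 of 3 (0% of 1682 genes). None of these had an unadjusted p under 0.05, against 6.27% of all genes in delta cells and 6.36% in PP cells. Abcc8 had 659.6 and 688 CPM in delta cells of the mutants, against 694 and 609 CPM in those of the controls.

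**Figure D3:**
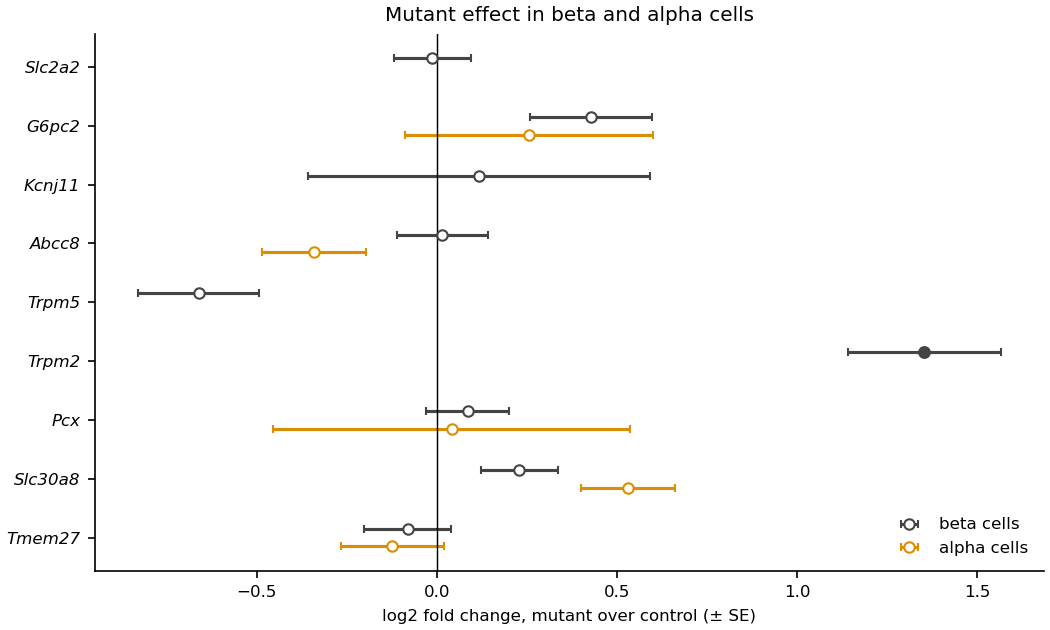
Mutant over control log2 fold change (horizontal axis) with its standard error for each gene (vertical axis) in beta cells (grey, above) and alpha cells (orange, below). Filled points passed an adjusted p of 0.05 in edgeR: Trpm2 in beta cells alone, at 1.35, while Slc30a8 in alpha cells is at 0.53 and open.

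Within mutant 2, cells that kept Atf4 RNA could be set beside cells that did not. Among beta cells with more than 8000 UMIs, 0 Atf4 counts were found in 95.6% of cells of mutant 1 and 50.8% of those of mutant 2, against 2.50% and 3.46% in controls 1 and 2. In mutant 2, Trpm2 was at 39.5 CPM (exact 95% Poisson interval 32.1 to 48.0) in the 234 cells with 0 Atf4 counts, 27.8 CPM (17.2 to 42.5) in the 89 cells with 1 or 2 and 18.3 CPM (12.5 to 26.0) in the 138 cells with at least 3. The intervals of the first and last did not overlap. Both were above the deep cells of the controls, at 10.8 and 10.5 CPM, though the interval of the last overlapped theirs (8.18 to 14.0 and 8.08 to 13.3). Deep cells of mutant 1 were at 22.9 CPM (18.9 to 27.4), and those of them with 0 Atf4 counts at 23.2 CPM (19.2 to 27.9). Both intervals lay below that of mutant 2 cells with 0 Atf4 counts. They overlapped that of mutant 2 cells with at least 3.

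Apart from Kcnj11, with 8 and 2 UMIs, the other genes differed by smaller folds between these cells of mutant 2. Trpm5 was at 382 CPM (358 to 406) in cells with 0 Atf4 counts and 412 CPM (382 to 444) in cells with at least 3, against 483 and 615 CPM in controls 1 and 2. G6pc2 was at 2173 CPM (2116 to 2231) in cells with 0 Atf4 counts and 2054 CPM (1987 to 2124) in cells with at least 3. Slc30a8 was at 1989 CPM (1934 to 2045) and 1869 CPM (1805 to 1936) in the same cells, both above the 1512 and 1629 CPM of the controls. Slc2a2 was at 1322 CPM (1278 to 1368) with 0 Atf4 counts and 1222 CPM (1170 to 1276) with at least 3. These intervals did not overlap either, and deep cells of controls 1 and 2 were at 1228 and 1238 CPM. Between the same cells of mutant 2, Abcc8 was at 497 and 502 CPM, Pcx at 125 and 130 CPM and Tmem27 at 608 and 613 CPM. All these cells came from 1 pool, so the intervals cover counting error only and no test was made. Their median UMI counts were 15166 with 0 Atf4 counts, 12373 with 1 or 2 and 17937 with at least 3, and the part of depth in these values was not tested.

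**Figure D4:**
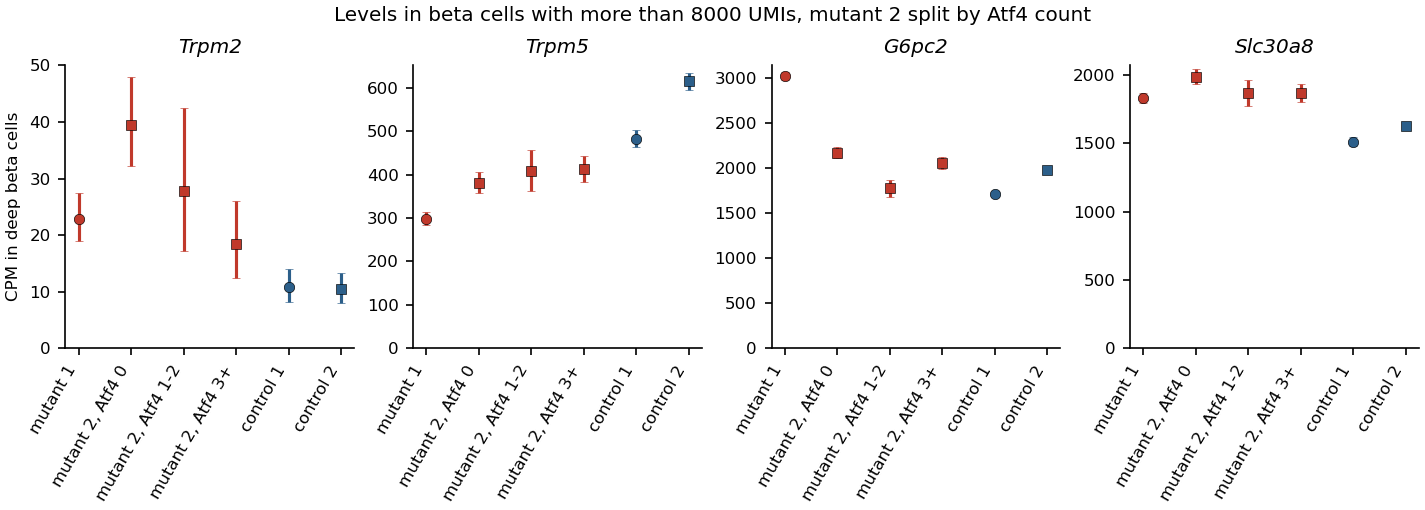
Levels of 4 genes in beta cells with more than 8000 UMIs, in CPM (vertical axis, from 0), for mutant 1, mutant 2 split by Atf4 count, and the controls (horizontal axis). Error bars are exact 95% Poisson intervals. In mutant 2, Trpm2 stands at 39.5 CPM with 0 Atf4 counts and 18.3 CPM with at least 3, while Trpm5 in all 3 groups of mutant 2 is below both controls.

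The wider pathway was described by 6 lists in beta cells. Of all genes tested, 0.523% passed the test, 14.0% had an unadjusted p under 0.05 and 50.9% had a log2 difference above 0, with a median of 0.01. Of 28 tested genes of membrane excitability, 2 rose and none fell. They were Atp1b1, a subunit of the sodium-potassium pump, by 0.83 ± 0.12 (adjusted p = 0.0322), and the potassium channel gene Kcnq1, by 0.92 ± 0.13 (adjusted p = 0.0333). The list's median was 0.23, with 23 of 28 genes above 0, and at an unadjusted p under 0.05 there were 7 higher and 0 lower. Of 18 genes of zinc handling, 1 fell, the metallothionein gene Mt2, with a log2 difference of -0.81 ± 0.13 (adjusted p = 0.0491), and the list's median was -0.02, with 1 gene above and 4 below 0 among those at an unadjusted p under 0.05. In edgeR none passed among 22 glycolysis genes (median -0.19), 36 genes of mitochondrial coupling (-0.05), 26 of calcium and incretin signalling (0.08) and 15 relatives and regulators of Tmem27 (-0.19). At an unadjusted p under 0.05, 0 of the glycolysis genes were higher and 3 lower, and 3 of the mitochondrial genes were higher and 4 lower. The 26 calcium and incretin genes had 4 higher and 1 lower, and the 15 relatives and regulators had 0 higher and 4 lower. Log2 differences above 0 were found for 6 of 22 glycolysis genes, 13 of 36 mitochondrial genes and 9 of 18 zinc genes. They were found for 16 of 26 calcium and incretin genes and 2 of 15 relatives and regulators.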

How the data were processed

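The 4 deposited matrices hold whole-number UMI counts per gene symbol and barcode, made by the authors. Per the submitters' processing notes, the build was mm10, and Seurat is named without a version; the aligner and counter are not given in the sources used here. Human K562 cells could not be called among mouse gene symbols, and no doublet caller was run. Nothing says that the 2 pools of a group were made apart in time, so p-values measure only the spread between pools. The 2 samples of a group differed by more than sampling noise (chi-square per degree of freedom of 9.65 in mutants and 12.4 in controls).

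A barcode was kept as a cell if it had 500 or more genes and less than 20% mitochondrial UMIs. A hormone counted as present above the valley of its share of UMIs: 5.96% for insulin over all cells, and 1.5% for glucagon, 0.944% for somatostatin and 5.96% for Ppy. The last 3 were read among insulin-low cells, a departure from the written plan, which pooled all cells, made after the pooled valley for somatostatin was seen to lie above that among insulin-low cells. Barcodes with more than 1 hormone, which include doublets of different types, were left out; doublets of a single type remain. Classes are rebuilt names. Endothelial and macrophage cells were above no hormone threshold and held at least 3 markers of their list.

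For each class the UMI counts of a sample were added up and tested by edgeR 4.0.16 (R 4.3.3, limma 3.58.1), with filterByExpr, TMM scaling, quasi-likelihood F tests and Benjamini-Hochberg adjustment over all genes tested, at a threshold of 0.05. Class comparisons left out 7 hormone genes and held the sample as a block. A standard error is the fold change over the root of F. DESeq2 1.42.0 and limma-voom were alternatives, as were other scaling, filters, cell classes, cells split by Xist and Y-linked counts, and leaving out each sample. Fits were tested on simulated counts, with 100 genes changed by 1 and 100 by 2 on the log2 scale. The mutant fit in beta cells found 96% and 100% of these, beside 22 false calls. In alpha cells it found 53.1% and 90.9%, beside 5 false calls. The fit of the difference of effects between beta and alpha cells found 45% and 95%, beside 7. The fit of beta against alpha cells found 97% and 100%, beside 13. The changed genes were drawn only from genes of higher average level. In the mutant fits this left out Trpm2 (average log2 CPM of 3.50) and Kcnj11 (0.386) in beta cells, and Pcx (3.93) in alpha cells. The shares found in those fits therefore do not cover these genes. Intervals are exact Poisson and cover counting error only. Deviations of samples with the same replicate number had a correlation of -0.09, which cannot show whether the numbers pair the samples. The main fits held no replicate block, and such a block was an alternative. The 9 genes and the lists were chosen with earlier results of these data known, and so was the limit of 8000 UMIs for deep cells. All 9 genes are named throughout, with list genes past the threshold and the 3 most alike genes of each, except 1 gene that is not reported here. Python 3.11.15 and scanpy 1.11.5 were used for clusters.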

Additional observations from a re-analysis of the deposited data

How the results depend on the processing

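In beta cells the count of the 9 genes that passed, 1 in the report, was 2 without a filter on low counts, in DESeq2 and with the replicate block, and 0 in limma-voom, at 300 genes a cell, in clusters made without the 9 genes, and in cells with Xist or with Y-linked counts. Leaving out 1 sample gave 0 to 2. For all genes, 71 in the report, the count was 117 with library totals alone, 432 without a filter, 231 in DESeq2, 20 in clusters, 250 with the replicate block, 108 with the library name prefix as a block, 120 in Xist cells, 8 in Y-linked cells, 119 with hormone thresholds of 0.3% (chosen after the data were seen) and 19 to 520 with a sample left out. Library totals alone moved the median of all genes to 0.13 and the share of calls that were higher to 86.3%, against 73.2% in the report; that share was 56.2% without a filter, 58.0% in DESeq2, 62.4% with the replicate block, 90.0% in clusters and 46.7% in Xist cells. In alpha cells 1 of the 9 genes passed without a filter, and 0 to 1 with a sample left out; the difference of the mutant effects between beta and alpha cells also gave 0 to 1. The causes were not tested.

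Signs turned only for differences that did not pass. In beta cells these were Slc2a2 (0.113 with library totals, 0.0373 in Xist cells), Tmem27 (0.047 with library totals), Abcc8 (-0.00425) and Pcx (-0.00726) in Xist cells. With a sample left out, Slc2a2 ran from -0.0526 to 0.00806, Kcnj11 from -0.241 to 0.635 and Abcc8 from -0.0745 to 0.104. In alpha cells they were Pcx (-0.0740 in limma-voom, -0.593 in clusters, -0.546 to 0.508 with a sample left out), G6pc2 (-0.331 in clusters, -0.207 to 0.924) and Tmem27 (0.105 in Xist cells, -0.352 to 0.0638). In delta cells they were Abcc8 (-0.0616 in clusters, -0.0939 in Xist cells, -0.206 in Y-linked cells, -0.0653 to 0.114) and Tmem27 (0.570 in Xist cells). In PP cells they were Slc30a8 (0.00131 with the prefix block) and Tmem27 (-0.474 to 0.0283). Between classes, Abcc8 turned against alpha cells in clusters (-0.0235, -0.0473 to 0.131 with a sample left out) and against PP cells with DESeq2 size factors (-0.128), library totals (-0.212), DESeq2 (-0.0868), limma-voom (-0.0787) and purer classes (-0.0818, -0.215 to 0.233 with a sample left out). The difference of effects for Tmem27 was -0.0433 in clusters and -0.0754 to 0.166 with a sample left out.

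Depth limits Kcnj11 (48 beta cell UMIs) and PP cells. Clusters gave no PP class, and PP cells with Xist could not be fitted.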

Other observations

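Barcodes rich in both insulin and glucagon, which the comparisons left out, had levels between those of beta and alpha cells for Slc2a2, G6pc2, Trpm5 and Tmem27. Slc2a2 was at 754, 833, 838 and 870.5 CPM in such barcodes of mutants 1 and 2 and controls 1 and 2, and Tmem27 at 1543, 1107, 1366 and 1274 CPM. Other genes did not lie between in every sample. In mutant 1, Slc30a8 was at 1372 CPM, below beta cells (1811 CPM) and alpha cells (1730 CPM). Trpm2 in mutant 1 was at 31.3 CPM from 15 UMIs, above beta cells at 23.0 CPM. Pcx in control 2 was at 125 CPM, above beta cells at 117 CPM. Abcc8, alike in beta and alpha cells, lay outside their levels in each sample. These 106 to 203 barcodes per sample had median UMI counts of 3723 to 4522, and whether they are doublets was not tested.

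Beta cells with Xist and those with Y-linked counts, which mark female and male cells of a pool, differed in the same direction in all 4 samples for some of the 9 genes. The share of all genes that did so is not given here, so this is not shown to be particular to the 9 genes. Trpm5 was higher in cells with Xist in 4 of 4 samples, at 411, 471, 486 and 651 CPM (mutants 1 and 2, then controls 1 and 2), against 184, 367, 456 and 539 CPM in cells with Y-linked counts. Slc2a2 was also higher with Xist in 4 of 4 samples, by least in control 2 (1243 against 1212 CPM). Tmem27, which is X-linked, was lower with Xist in 4 of 4 samples, at 643, 536, 603 and 546 CPM against 723, 628, 675 and 772 CPM, and Abcc8 was lower in 4 of 4. These are descriptions without a test, and the number of mice behind each set of cells is not given.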
